A study of Homo sapiens with 6 samples.

Results

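A run of closely spaced poly(A) 3′-seq peaks was described at chr2:66407902-67559791 (GRCh38), a stretch of 1151.89 kb that starts just before the homeobox gene MEIS1 and ends past ETAA1. Its members were all the peaks on chromosome 2 whose summit, the base with the most reads, lay between those positions, which gave 307 peaks of 200023 in the whole list and of 17295 on the chromosome. The boundaries were chosen by the density of peaks themselves, so the number, spacing and read depth of the members are given as descriptions, with no test. Members are numbered from 1, before MEIS1, to 307.

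The list came from IMR-32, an established human neuroblastoma cell line, and 1 line stood for the tumour type. There were 6 libraries in 3 groups, with 2 biological duplicates each. The first group received DMSO (the vehicle), the second THZ531 at 400 nM over 2 h, and the third the same dose over 6 h. THZ531 covalently inhibits the transcription kinases CDK12 and CDK13, and the study asked how such inhibition changes where transcripts are cleaved and polyadenylated. The reads of all libraries were merged before peaks were called. No peak therefore has a value for a library or a treatment, treated and control cells cannot be told apart here, and no value has a replicate error. The list has no strand either.

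In poly(A) 3′-seq the reads start where a transcript was cleaved and its poly(A) tail added. Cleavage in human cells is directed by a short hexamer, most often AATAAA, a little upstream of the site, and genomic stretches of A can prime the reverse transcription inside a transcript and imitate a site. MEIS1 is a homeodomain protein of the TALE class that binds DNA together with PBX and HOX proteins and is known from limb, blood and neural development and from leukaemia. Gains of DNA around MYCN and around MEIS1 have been described in IMR-32. DNA copy number was not measured in these libraries, and its part in the values below was not tested.

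The 30-base sequences that follow were read from the genome at members on which the description turns, 5′ to 3′ in the direction in which the signal lies before the peak's edge, with AATAAA in capitals. The first pair lies at peaks next to ends of short MEIS1 transcripts, and the other 5 lie at the tallest intergenic peaks that held the hexamer. Distances given below run from the first base of AATAAA to the peak's edge, which in a wide peak can lie far from its summit.
member 37, chr2:66512392-66512421, plus: atatttAATAAAtaactgtgttcccacagt
member 23, chr2:66454737-66454766, plus: atgtaaAATAAAacactgggaagcaaacag
member 303, chr2:67474906-67474935, minus: caaaatAATAAAcattaaatgtgtttgtgt
member 304, chr2:67476731-67476760, minus: tgtaaaAATAAAtcttaattttgaggattt
member 305, chr2:67477591-67477620, minus: gcccatAATAAAttttattgcaatgttata
member 166, chr2:67003238-67003267, minus: ttctaaAATAAAtatttcttgcctttgaaa
member 295, chr2:67413727-67413756, plus: gctgctAATAAAacttcaatgcaagtagta
The next 2 are the 30 bases just downstream of the edge at members with an A stretch, with A in capitals. They are shown because such letters could pair with the primer without a poly(A) tail.
member 52, chr2:66558288-66558317, plus: AAAAAAAAAAAAAAAAAgAAAAAAAgAAAA
member 92, chr2:66696825-66696854, plus: AAAAAAAAAAAAgAAgAAgAAgAAgAAgAA

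The run held 26.7 peaks per 100 kb. The 2 Mb before it held 165 peaks, or 8.25 per 100 kb, and the 2 Mb after it held 233, or 11.7 per 100 kb. A window of the same length centred on MYCN, the oncogene on the short arm of the same chromosome, held 154 peaks, or 13.4 per 100 kb. The rest of chromosome 2 held 6.97 per 100 kb. When all chromosomes were cut into 2669 windows of the run's length, the median window held 68 peaks and the fullest held 299, beside 307 in the run. The run's edges were set by peak density and those of the windows were not, so the comparison is no test. The density was 2.68 times that of both flanks together (95% interval 2.31 to 3.11, counting error only). That interval is no test either, and it treats clustered peaks as independent.

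Both edges were described by their nearest peaks. On the MEIS1 side the last peak outside had its summit at 66382815 with 6 reads at the summit, and the first member lay 25.1 kb further on, at 66407950, with 8 reads. The second member followed after 546 bp. On the ETAA1 side the peaks thinned out before the boundary. Member 305 lay at 67477760, and the last pair of members followed only after gaps of 47.9 kb and 34.1 kb, with 5 and 9 reads. The first peak outside came 88.2 kb after the last member, at 67647883, with 5 reads. Without the last pair, 305 members filled 1069.86 kb at 28.5 peaks per 100 kb.

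In bins of 50 kb, none of the 24 bins of the run was empty, and they held from 1 to 23 peaks with a median of 13. In the 1 Mb before the run, 12 of 20 bins were empty and only 16 peaks were listed. In the 1 Mb after it, 8 of 20 bins were empty and 85 peaks were listed, up to 17 in a bin. The fullest bins of the run were that over the start of MEIS1, with 23 peaks, and that centred 799 kb from it, with 22, inside the long noncoding genes LINC01828 and LINC01829. The profile of peaks by bin shows a lower stretch between these, with 5 to 13 peaks per bin from about 350 to 650 kb.

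**Figure D1:**
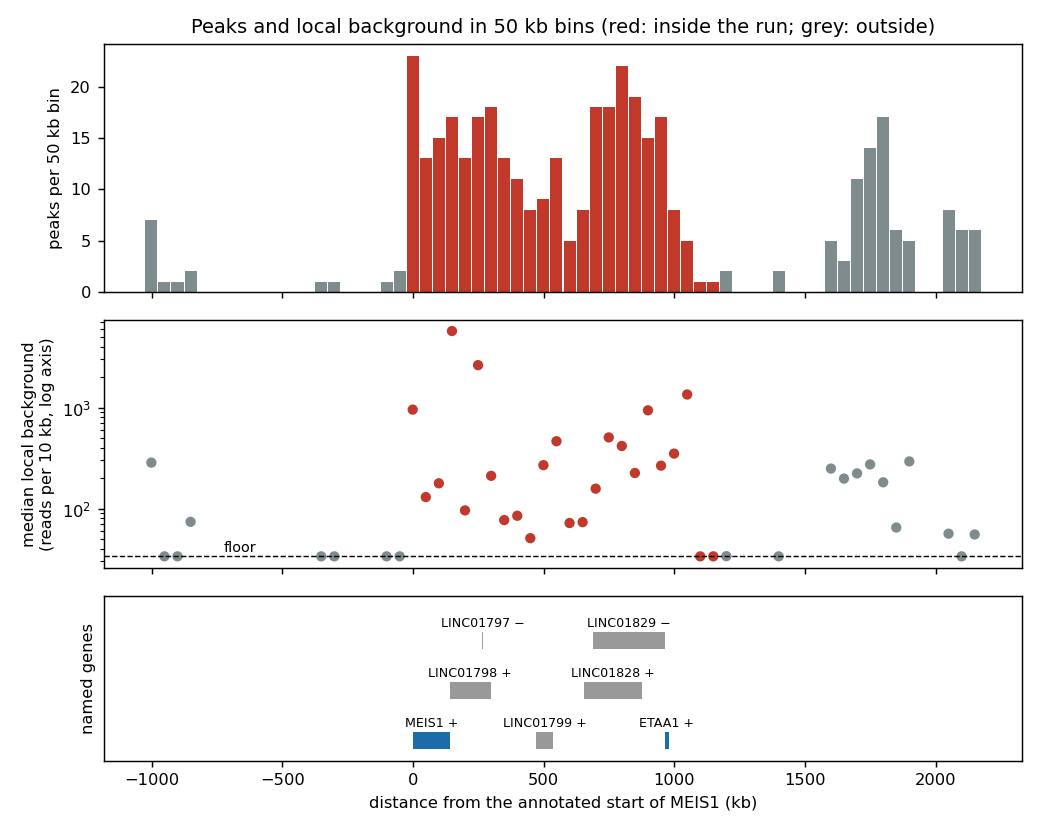
Number of peaks per 50 kb bin (top), median local background of the peaks in each bin in reads per 10 kb on a log axis (middle, dashed line at the floor) and the 7 named genes with their strand (bottom, protein-coding in blue), against distance from the annotated start of MEIS1 in kb. Bins inside the run (red) hold 1 to 23 peaks, and 12 of the 20 bins before it and 8 of the 20 after it (grey) hold none.

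Neighbouring summits in the run lay 2240 bp apart at the median, with quartiles of 893.5 and 5178 bp and a range from 210 bp to 47.9 kb. In 31 of 306 cases (10.1%) the distance was under 500 bp. The median distance was 3628 bp before the run, 3075 bp after it and 2017 bp in the MYCN window. The 2 Mb before the run had one gap of 496653 bp, whereas no gap inside the run was longer than 47875 bp.

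For each peak the number of reads piled at the summit and the local background were solved from the fold enrichment and the −log10 p that the authors deposited. Duplicates appear to have been removed, so a pileup counts distinct read positions, and a sharp site used by many reads can have a low one. The background is given as the reads in the 10 kb around the summit, and the peak caller never lets it fall under a genome-wide floor, here 33.72 reads per 10 kb. Peaks that lie close together share most of this window. Summit pileups in the run ranged from 5 to 159 reads with a median of 19 (95% interval 17 to 21) and quartiles of 12 and 36. The medians were 12 (11 to 13) before the run, 15 (13 to 16) after it, 21.5 (19 to 25) in the MYCN window and 11 in the whole list. At least 50 reads were found at 49 members (16.0%), at none of the 165 peaks before the run and at 6 of those after it (2.58%). The share was 12.3% in the MYCN window and 1.01% in the whole list.

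The local background of the members had a median of 219 reads per 10 kb (95% interval 177 to 257), which was 6.49 times the floor, and quartiles of 102.5 and 664. It was 109 (79 to 136) before the run, 143 (99 to 159) after it and 70 in the whole list, and 274.5 (240 to 302) in the MYCN window. These intervals treat the peaks as independent, although neighbours share most of the background window. Only 10 members (3.26%) were at the floor, against 14.5% before the run, 10.3% after it and 22.2% of the whole list. The fold enrichment, which sets the pileup against the background, had a median of 5.42 (range 1.59 to 14.2) among the members and of 5.95 in the whole list. A −log10 q of at least 5 was reached by 253 members (82.4%), beside 69.3% of the whole list, and of at least 20 by 23 (7.49%), beside 6.49%. Pileup and background come from the same reads as the density that set the boundaries, so nothing is read from these differences.

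High background was not spread evenly. With a limit of 10 times the floor, 337.2 reads per 10 kb, which was set after the values were seen, 118 members (38.4%) lay above it and fell into 11 stretches of neighbouring members. The share above this limit was 2.42% before the run, 16.7% after it, 35.7% in the MYCN window and 6.52% on the rest of chromosome 2. The 118 members had a median pileup of 42 reads (14 to 159) and the 189 others of 13 (5 to 33). The highest backgrounds were just past the 3′ end of MEIS1 (up to 6629 reads per 10 kb), in LINC01798 around LINC01797 (3270), in LINC01828 and LINC01829 (2695) and at the 5′ part of MEIS1 (1766). The plot of the members by position shows these as narrow columns of points.

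**Figure D2:**
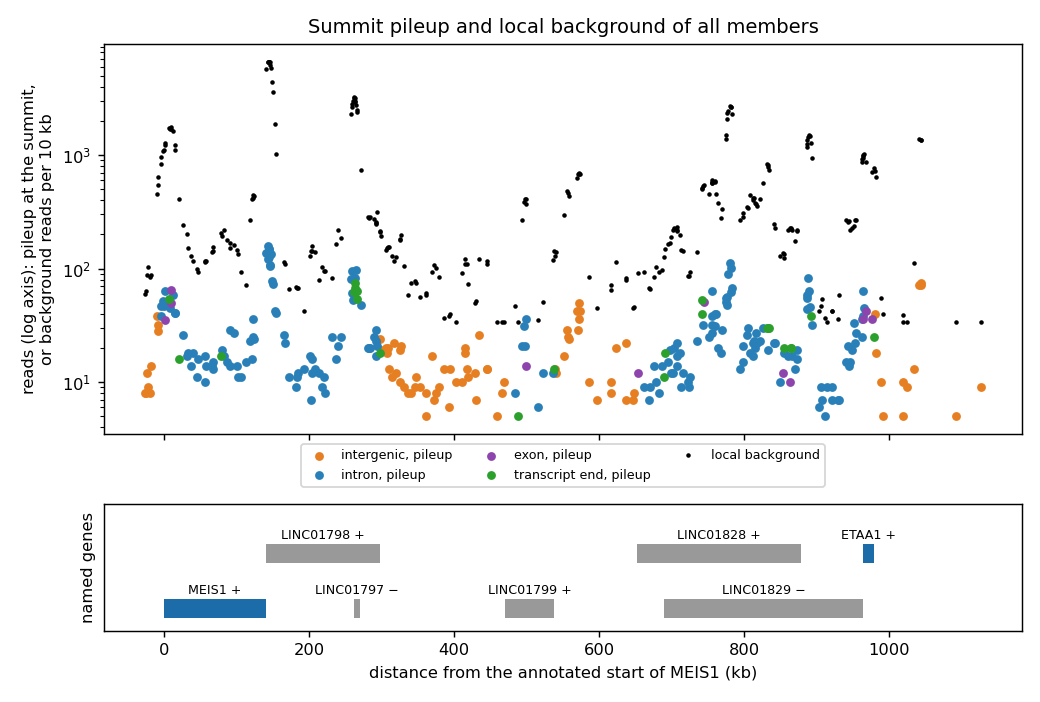
Reads at the summit of each of the 307 peaks, coloured by annotation class, and their local background in reads per 10 kb (black), on a log axis against distance from the annotated start of MEIS1 in kb, with the named genes below. The pileups run from 5 to 159 reads and the backgrounds from 33.72 to 6629 reads per 10 kb, and both are highest about 140 to 150 kb from the start of MEIS1.

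MEIS1 (ENSG00000143995.20, chr2:66433452-66573869, plus strand) held 40 members over 140.4 kb, or 28.5 per 100 kb. Their pileups ran from 10 to 65 reads with a median of 17.5, and their background from 71 to 1766 reads per 10 kb with a median of 197. Of the 40, 34 lay in introns, 3 in exons and 3 at annotated transcript ends. None was at the floor. MEIS1 had more peaks than most genes of like length in this list, since 91 of 2165 protein-coding genes of 100 to 200 kb held 40 or more and the median held 20. Its median background was reached by 41 of these genes, whose own median was 59.5. MEIS1 lies in a run chosen by its peak density and the other genes were not so chosen, so this ranking is no test.

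Along MEIS1 the members lay mainly in the long introns of its canonical transcript. Counted by summit, the introns of this transcript alone held 36 members. Some of the 36 were classed above as exon or transcript end, because those classes take in all transcripts. Intron 7, of 47.9 kb, held 12 members of 10 to 18 reads. Intron 8, of 35.6 kb, held 11 members of 11 to 29 reads. Intron 6, of 21.1 kb, held 6 members of 16 to 59 reads, and intron 9, of 19.4 kb, held 5 members of 16 to 36 reads. Intron 5, which is only 1.44 kb long, held a pair of 45 and 65 reads, the latter the tallest of the gene. That tallest peak, member 18, was of the exon class. Introns 1 to 4 and 10 to 12, the longest of them 2.1 kb, held none. Pileups were thus highest near the 5′ end of the gene, fell to below 20 reads in intron 7 and rose again toward intron 9.

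A first stretch of high background covered the 5′ end of MEIS1. It held 17 neighbouring members, 7 to 23, from 66423340 to 66454834. Their pileups were 16 to 65 reads and their background 409 to 1766 reads per 10 kb. This stretch also covers the antisense genes MEIS1-AS3 and MEIS1-AS2, with 3 and 4 members, and since the list has no strand their reads and those of MEIS1 cannot be told apart. AATAAA was found at 3 of the 17 in the plus direction and at 5 in the minus direction.

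At the 3′ end of MEIS1 no peak was listed. Gencode gives MEIS1 17 transcripts with 16 different ends, and peaks lay at 4 of these ends, all of them inside the gene. Member 16 (54 reads, background 1716) lay at the end of a short transcript 6.49 kb from the start, member 23 (16 reads) at one 21.3 kb from it, and member 37 (17 reads) at a pair of ends 78.9 kb from it. The sequences above show AATAAA at members 37 and 23, 21 and 92 bases before the edge. In both it lies past the annotated ends, which are at 66512191 and 66512294 for member 37 and at 66454735 for member 23. It is therefore not given as the signal of those ends. Member 16 had none. The 9 most distal ends, of 10 transcripts and including the canonical one, lay between 66567500 and 66573869 and had 0 peaks. They fell inside a gap of 16.3 kb between members, the fifth longest of the run.

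The tallest peaks of the run began directly after this gap. Member 53 had its summit 687 bp past the canonical end of MEIS1, with 136 reads on a background of 5706 reads per 10 kb. By annotation it lay in LINC01798, a noncoding gene on the same strand that starts 161 bp past MEIS1. Member 55, the tallest, had 159 reads, member 56 had 149, member 57 had 148 and member 61 had 135. All 5 lay within 7 kb of the end of MEIS1. The 13 members within 15 kb past that end had a median of 121 reads (41 to 159) and a background of 1025 to 6629 reads per 10 kb, and AATAAA was found at 3 of them and an A stretch at none. Their fold enrichment was low, 1.59 to 3.73. A peak at the annotated end itself would have taken in much of the same background, and whether reads there missed the limit for a peak was not tested, because the list holds no read counts outside peaks.

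LINC01798 (chr2:66574030-66731223) held 54 members in all, or 34.4 per 100 kb, with 49 in introns and 5 at transcript ends. It contained a further stretch of high background, of 13 members from 66691655 to 66705247, with pileups of 48 to 98 reads and backgrounds of 744 to 3270 reads per 10 kb. The small gene LINC01797 (chr2:66696190-66703252), on the opposite strand inside it, held 6 of these, of 54 to 98 reads. Member 92 (74 reads) lay at ends of both LINC01797 and LINC01798, and its A stretch in the plus direction, of the looser kind with at least 18 A, is printed above. Outside these stretches the members of LINC01798 were low, and the bin 200 kb from the start of MEIS1 had a median of 12 reads.

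LINC01799 (chr2:66904436-66971462) held 11 members of 5 to 36 reads, at 16.4 per 100 kb the lowest density of the named genes. The overlapping pair LINC01828 (chr2:67086446-67311439, plus) and LINC01829 (chr2:67123357-67397980, minus) held 81 and 102 members, or 36.0 and 37.1 per 100 kb. Members in the part they share count for both. The tallest there was member 225 (chr2:67213831-67214560), 730 bp wide, with 113 reads on a background of 2695 reads per 10 kb. It belonged to a stretch of 9 members with backgrounds of 1386 to 2695, next to which lay stretches of 13 and 15 members with backgrounds of 374 to 600 and of 341 to 839.

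ETAA1 (ENSG00000143971.9, chr2:67397322-67412089, plus) encodes a protein that activates the kinase ATR at stalled replication forks. It held 5 members over 14.8 kb, of 36 to 63 reads with a median of 42, on backgrounds of 715 to 1013 reads per 10 kb, and all 5 had a −log10 q of at least 5. A peak lay at its only annotated end, whereas none was listed at the canonical end of MEIS1. Member 294 had its summit 3 bp past the end of all 4 transcripts, with 25 reads on a background of 771 and a −log10 q of 4.44. It had no AATAAA. Member 295, 1.46 kb past the gene, was taller, with 40 reads, and the sequence above shows AATAAA 9 bases before its edge in the direction of ETAA1.

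By annotation class, 191 of the 307 members (62.2%, Wilson 95% interval 56.7 to 67.5) lay in introns, 83 (27.0%, 22.4 to 32.3) between genes, 22 (7.17%, 4.78 to 10.6) at transcript ends and 11 (3.58%) in exons. Transcript ends made up 16.4% before the run, 14.6% after it, 9.74% in the MYCN window and 16.8% on the rest of chromosome 2. Exons made up 8.48%, 10.3%, 5.19% and 8.58%, in the same order. The share between genes was 12.7% before the run, 6.44% after it, 23.4% in the MYCN window and 9.37% on the rest of chromosome 2. It depended on which transcripts were counted, since most genes of the run are noncoding. With protein-coding transcripts alone it was 85.0%.

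Members were more closely packed than peaks of the flanks in every class, and the ratio was highest between genes. Per 100 kb of intergenic sequence the run held 18.6 peaks, which was 4.40 times the density before it, 8.26 times that after it and 10.5 times that of the rest of chromosome 2. In introns the ratios were 3.93, 2.16 and 3.68. In exons they were 2.05, 1.63 and 2.32, and at transcript ends 1.64, 1.35 and 1.74. The plot of density by class shows this order. Exons and transcript ends rest on only 33 members.

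**Figure D3:**
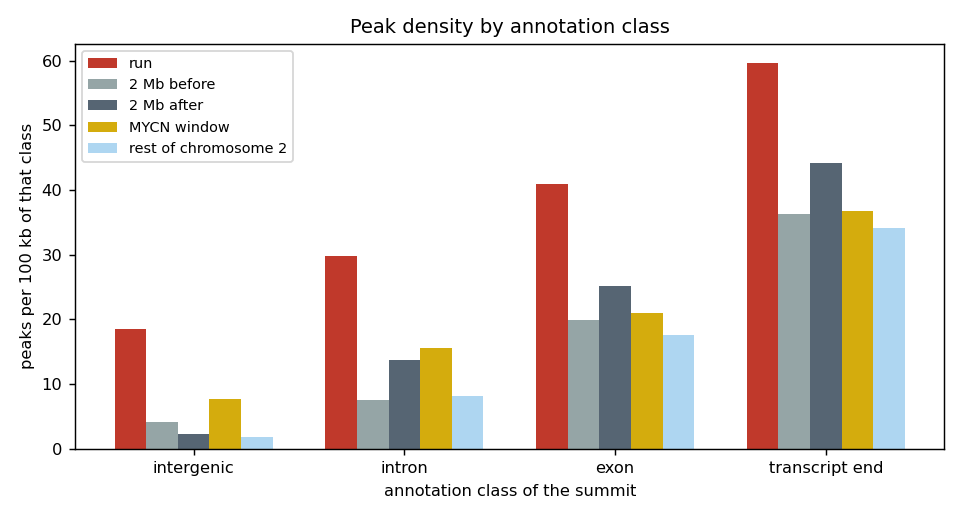
Peaks per 100 kb of sequence of each annotation class (bars from 0) in the run, the 2 Mb on either side, the MYCN window and the rest of chromosome 2. The run is highest in each class, from 18.6 peaks per 100 kb between genes to 59.6 at transcript ends.

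Intergenic members had a median of 12 reads on a background of 103, introns 21 on 265, and transcript ends 27.5 on 506. The 83 intergenic members lay 0.853 to 65.7 kb from the nearest gene with a median of 15.9 kb, and 18 of them within 5 kb. The 88.3 kb between LINC01798 and the pseudogene DNMT3AP1 held 25 of them, of 5 to 24 reads. The 68.5 kb after LINC01799 held 13, of 7 to 50 reads, 8 of which formed a stretch of backgrounds from 437 to 689. In the 18.2 kb before MEIS1-AS3 there were 9, of 8 to 38 reads.

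The 147 kb past ETAA1 held 13 intergenic members, of which 10 had no more than 18 reads or lay next to the gene. The other 3 stood close together 62.9 to 65.7 kb past ETAA1. Member 303 (chr2:67474913-67475093) had 72 reads, member 304 (chr2:67476729-67477495) had 74 and member 305 (chr2:67477593-67478582) had 71, on backgrounds of 1345 to 1386 reads per 10 kb. Members 304 and 305 were 767 and 990 bp wide, the widest pair of the run, whose median width was 121 bp. Their −log10 q ran from 24.4 to 26.3. All 3 held AATAAA in the minus direction, 17 to 26 bases before the edge as printed above, and none held it in the plus direction. In member 304 that edge, at 67476729, lies far from the summit, at 67477202. No gene of the annotation used lies there.

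**Figure D4:**
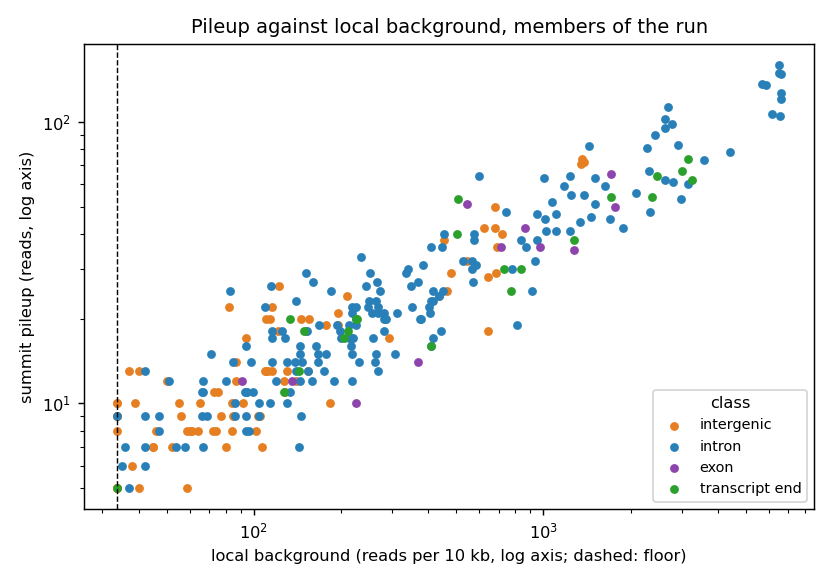
Summit pileup in reads against local background in reads per 10 kb for the 307 peaks, both on log axes and coloured by annotation class, with the floor dashed. Where the background reaches 2000 reads per 10 kb or more, the 30 members have at least 48 reads, and the 10 members at the floor have 5 to 10.

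A peak is called only where the pileup exceeds its background, so the lowest pileup rose with the background by construction, as the plot of pileup against background shows. The 10 members at the floor had 5 to 10 reads. The 30 members with backgrounds of 2000 or more had 48 to 159 reads and a median fold enrichment of 2.26. The lowest pileup that could still be called at such places was not computed.

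Sequence was not used to set the run. AATAAA lay within the 100 bp before the peak's edge, in at least 1 reading direction, at 130 of the 307 members (42.3%, Wilson 95% interval 36.9 to 47.9). Of all windows of the same shape in the run, 21.4% held it. The share of peaks was 30.3% (23.8 to 37.7) before the run, 41.2% (35.1 to 47.6) after it, 39.0% (31.6 to 46.8) in the MYCN window and 36.0% on the rest of chromosome 2, beside windows of 15.9%, 18% and 15.7% in the first 3. Within the 10 to 35 bases before the edge, where the signal usually lies, AATAAA was found at 80 members (26.1%, 21.5 to 31.2) against 6.58% of all windows. That share was 18.8% (13.6 to 25.4) before the run and 27.0% (21.7 to 33.1) after it. It was 24.7% (18.5 to 32.0) in the MYCN window and 23.9% (23.2 to 24.5) on the rest of chromosome 2. Within 100 bp, the interval for the rest of chromosome 2 was 35.3 to 36.7, just below that of the members, and windows were not counted there. The members' intervals overlapped those of both flanks and the MYCN window in both measures. The run is richer in A and T than they are, at 61.9% beside 57.8%, 59.6% and 56.8%, and its share of windows with AATAAA was the highest of the 4 regions.

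With 12 accepted hexamers the measure separated peaks from sequence less well. One of the 12 was found at 245 members (79.8%, 75.0 to 83.9), but 75.4% of all windows in the run held one too. All 22 members at transcript ends had one. By class, AATAAA lay at 44.6% (34.4 to 55.3) of intergenic and at 41.4% of intronic members, at 5 of 11 in exons and at 9 of 22 at transcript ends. On the rest of chromosome 2 the shares were 33.8%, 31.9% and, at transcript ends, 53.1%. Of the 23 members with a −log10 q of at least 20, 14 held AATAAA, and of the 49 with at least 50 reads, 19 did.

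Reading direction was taken only from the sequence. AATAAA lay in the plus direction alone at 62 members, in the minus direction alone at 55, in both at 13 and in neither at 177. Among the 40 members in MEIS1 it lay in the gene's own direction at 14 and in the opposite one at 7. In LINC01798 the numbers were 13 and 3, in LINC01829 30 and 18, and in LINC01828, most of which LINC01829 overlaps on the other strand, 15 and 22. In ETAA1 they were 4 and 1.

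A stretches were windows of 25 bases, no further than 50 bp past the edge, in which 22 or more were A. They lay at 9 members (2.93%, 1.55 to 5.48), beside 0.248% of all windows in the run, 5.45% of the peaks before it, 3.86% of those after it, 0.649% of those in the MYCN window and 5.82% of those on the rest of chromosome 2. With at least 18 A, 63 members (20.5%, 16.4 to 25.4) held one, beside 1.99% of all windows. The share was 31.5% (24.9 to 39.0) before the run, 21.5% (16.7 to 27.2) after it, 10.4% (6.50 to 16.2) in the MYCN window and 26.2% on the rest of chromosome 2. The looser stretch was found in the gene's direction at 7 of the 40 members in MEIS1 and in the opposite direction at 0, which allows a share of up to 7.5% by counting error.

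The looser A stretch was less frequent at members with a high background. It lay at 31.8% of the 66 members from just above the floor to 100 reads per 10 kb, at 23.7% of the 139 from 100 to 500, and at 5 of the 92 with 500 or more. Of the 49 members with at least 50 reads, 2 held it. Most members, 209 of 307 (68.1%), had one of the 12 hexamers and no such stretch, beside 54.5% before the run, 65.7% after it, 71.4% in the MYCN window and 60.3% on the rest of chromosome 2. The reverse, a stretch without a hexamer, was found at 27 (8.79%), beside 21.8% before the run, 10.7% after it, 4.55% in the MYCN window and 14.4% on the rest of chromosome 2.

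**Figure D5:**
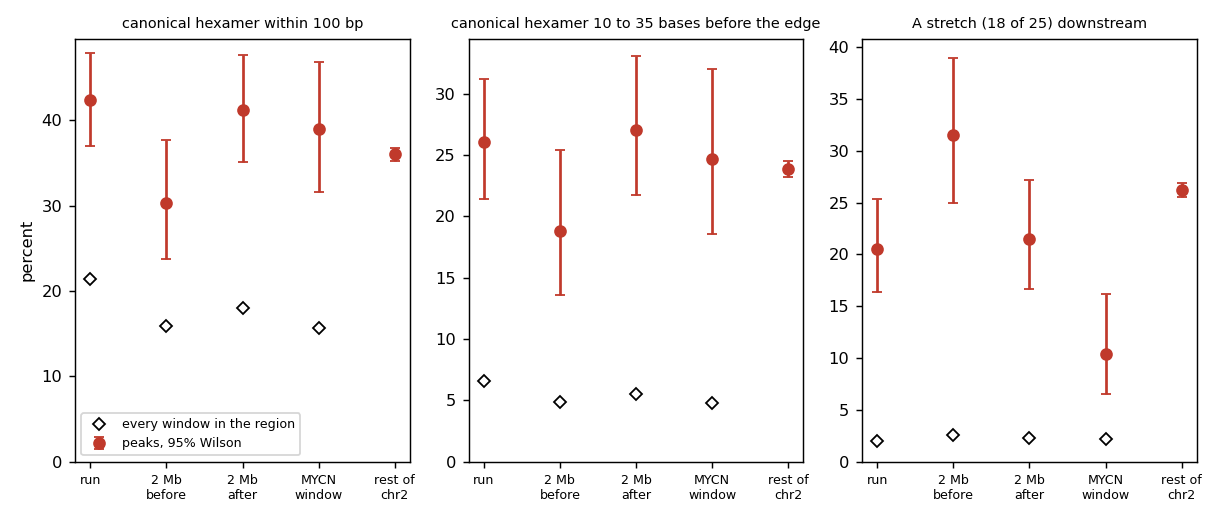
Percent of peaks with the canonical hexamer within 100 bp before an edge (left), with it 10 to 35 bases before the edge (middle) and with at least 18 A of 25 bases downstream (right), with 95% Wilson intervals (red), and of all windows of the same shape in each region (open diamonds, not computed for the rest of chromosome 2). In the run the peaks stand at 42.3%, 26.1% and 20.5% and the windows at 21.4%, 6.58% and 1.99%.

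MEIS1 was set beside the other TALE homeobox genes, which encode its DNA-binding partners and relatives. MEIS2, a close relative, held 52 peaks at 24.5 per 100 kb with a median background of 60.5 reads per 10 kb. PBX3, which encodes a partner of MEIS proteins, held 49 peaks at 22.3 per 100 kb, with a background of 66. MEIS1, at 28.5 per 100 kb and 197, was above both of these long genes in density and in background. As MEIS1 lies in a run chosen by peak density, this is a description. Among the 11 genes its density was exceeded by the short genes PBX2 (54.8), TGIF2 (39.1) and MEIS3 (30.5), and its median background by MEIS3, PBX2, TGIF1 and TGIF2, at 298 to 537. Transcript-end peaks were listed for 10 of the 11, with up to 12 to 58 reads, and PKNOX2 had none. That of MEIS1, with 54 reads, is at a short transcript.

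The labelled cell type was checked against marker genes. All 10 genes of neuroblastoma and sympathetic neurons, such as GATA3 and DBH, had a transcript-end peak of 19 to 123 reads at its tallest, with a median of 60.5. Of 7 genes of other cell types, 5 had none (PTPRC, CD3E, ALB, PECAM1 and COL1A2), while EPCAM had 7 reads and COL1A1 15. Elsewhere in these genes, EPCAM held peaks of up to 25 reads, PTPRC of up to 5 and PECAM1 of 7. Of the 26 protein-coding genes in the flanks of the run, 24 held a peak, with a median of 23.2 per 100 kb and up to 54.0 in LGALSL. The highest median background among them was 380 reads per 10 kb, in PNO1, beside 972 in ETAA1. MEIS1, with 28.5 peaks per 100 kb and a median background of 197, lay inside the range of these flanking genes in both.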

How the data were processed

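Poly(A) 3′-seq reads of the 6 libraries were trimmed by the authors, aligned with STAR 2.5.1b to GRCh38, keeping reads with up to 20 placements, and merged, and peaks were called with MACS2 2.1.1. The merged libraries are taken to be these 6. The study then discarded peaks that lacked a hexamer and lay before a genomic A stretch. The list used here still holds such peaks, among them member 52, so not all members need have been kept by the study. The deposited peak list gives a score, which was not used, a fold enrichment (ratio of pileup to background), −log10 p and −log10 q for each peak. None of its columns belonged to a single library.

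From these values the whole-number pileup and the background were solved, using the definition of fold enrichment with 1 read added to both and the Poisson probability. The largest misfit in −log10 p was 0.000172, and 100% of backgrounds above the floor came out as whole reads. The floor corresponds to about 9104400 reads after removal of duplicates, if a genome of 2.7e9 bases was used. The solution was tested on simulated peaks. The highest pileup in the list is 200 reads. That is the most that reads extended to 100 bp can reach if each position and strand counts once. Intervals cover counting error only, as Wilson intervals for shares and order-statistic intervals for medians. Depth per library was not analysed here.

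Each summit was classed, in this order, as a transcript end (200 bp before to 600 bp after), exon, intron or intergenic with Gencode v44, where the study used an older release. Sequence was read from GRCh38 in both directions with Python 3.11.15 (NumPy 2.4.6, pandas 2.3.3, SciPy 1.17.1). The text names all protein-coding genes of the run, other genes there with at least 5 peaks, the 5 tallest and 3 widest peaks, the tallest at a transcript end of each protein-coding gene, and the peaks at both edges. Other members named, among them 295, 303 and the stretches, were singled out after their values were seen. The members and gene lists were chosen with earlier results of these data known. Alternatives were a stricter q, merged peaks, other flanks, other transcripts and other sequence windows. Some genes of the lists and some sequences are not reported singly here.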

Additional observations from a re-analysis of the deposited data

How the results depend on the processing

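With −log10 q of at least 20, the run kept 23 members of 307, 22138.5 bp apart at the median in place of 2240, with a median pileup of 63 (19), a median background of 683 (219) and no stretch of 22 A (0%, against 2.93%). The ratio of its density to that of the flanks, 2.68, was then 3.63. It was 5.61 with flanks of 1 Mb, 3.23 against the left and 2.29 against the right flank alone, and 6.01 for intergenic peaks per intergenic base. The intergenic share, 27.0%, was 85.0% with protein-coding transcripts only. The hexamer share, 79.8%, was 62.5% within 40 bp and 42.3% for AATAAA alone, and the A-stretch share was 20.5% with 18 A. The run kept 253 members with a −log10 q of at least 5 and 288 with peaks closer than 200 bp merged. Under these, with peaks at the floor left out and with a narrower transcript-end window, the medians, ratio and shares that were recomputed stayed within their intervals. Leaving out the last pair of members, an alternative chosen after seeing the data, gave 2.87. No paired analysis was possible because the peaks were called on merged reads, and no replicate could be left out for the same reason. The pooling, the lack of strand, the shared background windows and the copy number, which was not measured, limit every value here.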
